A study of Homo sapiens with 40 samples.

Results

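Of the 76603 regions that carried an ATAC-seq peak in at least 1 of 40 peak lists, 776 were taken. They were open in BT474 cells and mostly had no peak in BT474R cells kept in vehicle for 12 or 24 h. In most BT474R lists after EGF or HRG at those times they had a peak. The 776 were chosen by the presence of peaks alone. Peaks of all lists on chromosomes 1 to 22 and X that overlapped by at least 1 bp were merged, and a region was taken when it had a peak in 18 or more of the 20 BT474 lists, in 1 or fewer of the 4 late vehicle lists of BT474R and in 6 or more of the 8 late ligand lists of BT474R. Late means 12 and 24 h throughout.

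ATAC-seq marks accessible chromatin through the insertion of sequencing adapters by a transposase. BT474, an established breast carcinoma line with amplified HER2, responds to the antibody trastuzumab, and BT474R is a single clone (clone 5) raised from it under trastuzumab, so that differences between the lines cannot be told apart from properties of this clone. Cells of both lines were serum starved and collected untreated at 0 h (baseline), or at 1, 12 and 24 h after EGF, HRG or vehicle (water, the control), with 2 libraries in each of the 20 groups. Each library had its own peak list, with 47571 to 56846 peaks in BT474 and 32479 to 56494 in BT474R. Read totals are not part of such lists, so sequencing depth is unknown and absence of a peak means only that none reached the caller's limit. Promoter peaks (within 1 kb of the gene start) of the epithelial genes EPCAM, CDH1, KRT8, KRT18 and KRT19 and of ERBB2 were found in all 40 lists, and that of GATA3 in 19. The leukocyte and endothelial genes PTPRC, CD3E and PECAM1 had none in any list, nor had COL1A2, while COL1A1 had one in all 40.

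EGF binds EGFR, and HRG (heregulin, a neuregulin) binds HER3 and HER4, which signal with HER2 as their partner. Both ligands activate the RAS, RAF, MEK and ERK kinases, whose targets include the FOS and JUN proteins. Dimers of FOS and JUN form the transcription factor AP-1, which binds a short palindrome-like site, mostly in enhancers far from promoters, and acts there with remodelers that open chromatin.

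Sequences around the summits of 5 of the 776 regions are shown first. The AP-1 site was the feature that most set the 776 apart among 18 motifs searched. The full pattern (all 20 BT474 lists, none of the 4 late control lists, all 8 late ligand lists) was met by 94 regions. Among those of the 94 with an AP-1 match, the 5 shown ranked highest in the late ligand lists of BT474R. The regions near LMNTD1, C8orf90, PTPRJ, TEP1 and ADGRF5, also among the 10 highest of the 94, held no match. Each line gives 201 bases of the plus strand of hg38, in lower case with every match to TGACTCA or its reverse complement TGAGTCA in capitals. Regions are named by the nearest protein-coding gene start, which is no statement on which gene the region acts upon.
IMMP2L region, chr7:111499176-111499376: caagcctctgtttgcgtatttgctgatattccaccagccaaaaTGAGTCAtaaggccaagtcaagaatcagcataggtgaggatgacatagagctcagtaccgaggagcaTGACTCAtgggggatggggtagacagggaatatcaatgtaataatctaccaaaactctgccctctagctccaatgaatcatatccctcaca
TSN region, chr2:122748558-122748758: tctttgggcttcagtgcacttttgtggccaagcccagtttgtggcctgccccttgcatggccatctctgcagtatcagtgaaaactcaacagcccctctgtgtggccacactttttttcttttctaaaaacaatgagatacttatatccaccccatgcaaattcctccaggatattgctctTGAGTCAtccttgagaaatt
COMMD9 region, chr11:36149734-36149934: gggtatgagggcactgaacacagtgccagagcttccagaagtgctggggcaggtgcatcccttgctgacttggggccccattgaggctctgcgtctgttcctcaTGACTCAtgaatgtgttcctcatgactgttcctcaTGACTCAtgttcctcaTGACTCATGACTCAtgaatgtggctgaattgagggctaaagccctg
BZW1 region, chr2:200765732-200765932: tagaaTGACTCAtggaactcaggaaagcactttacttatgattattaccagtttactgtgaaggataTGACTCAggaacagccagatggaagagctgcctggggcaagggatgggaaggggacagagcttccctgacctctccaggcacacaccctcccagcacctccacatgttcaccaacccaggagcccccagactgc
ZMIZ1 region, chr10:78756893-78757093: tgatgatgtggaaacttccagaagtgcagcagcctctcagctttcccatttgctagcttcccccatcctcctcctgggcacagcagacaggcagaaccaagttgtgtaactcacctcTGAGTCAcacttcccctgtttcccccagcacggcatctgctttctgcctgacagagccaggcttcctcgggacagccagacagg
The window near COMMD9, whose protein takes part in endosomal sorting, held 4 matches, and those near IMMP2L and BZW1 held 2 each. All but the region near ZMIZ1, which was intergenic, lay in introns of annotated genes.

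Regions near 3 genes of pathway lists that also held a match are shown next. The regions near the listed genes SLC2A1, EGR1 and GBP2 held 1 match each as well and are not shown. Those shown are the region near SPRY4, which encodes an inhibitor of the RAS and ERK pathway, and that near ITGB6, an integrin subunit. The last is that near CD99, an adhesion glycoprotein listed here with glycolysis and hypoxia genes.
SPRY4 region, chr5:142362815-142363015: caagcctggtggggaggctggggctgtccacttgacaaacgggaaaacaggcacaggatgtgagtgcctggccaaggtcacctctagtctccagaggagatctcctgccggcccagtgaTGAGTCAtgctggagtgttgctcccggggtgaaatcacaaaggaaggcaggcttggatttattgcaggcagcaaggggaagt
ITGB6 region, chr2:160229683-160229883: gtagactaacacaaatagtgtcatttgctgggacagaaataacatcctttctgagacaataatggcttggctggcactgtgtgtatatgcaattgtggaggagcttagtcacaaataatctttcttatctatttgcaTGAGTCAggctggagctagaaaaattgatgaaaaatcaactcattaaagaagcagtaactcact
CD99 region, chrX:2696790-2696990: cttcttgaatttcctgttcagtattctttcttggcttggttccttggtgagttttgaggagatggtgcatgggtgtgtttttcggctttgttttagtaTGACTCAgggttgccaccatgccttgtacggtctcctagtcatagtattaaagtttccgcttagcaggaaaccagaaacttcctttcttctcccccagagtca
The 3 regions were intronic, each with 1 match. CD99 lies in the pseudoautosomal part of X, whose sequence is shared with Y.

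The name under which these regions could be collected, regions that ligands reopen, did not hold for the lists that the choice had not used. In BT474R most of the 776 had a peak before any ligand was added. At baseline 623 and 383 had a peak in the replicates, and in the control lists at 1 h 741 and 717 did. The values at 1 h were 739 and 684 with EGF and 746 and 761 with HRG. Taken over these 8 lists, 86.9% of the entries held a peak. Of all 40765 regions in 18 or more BT474 lists (BT474 regions), 79.9% to 90.2% had a peak in each. A peak was present in all 8 for 325 of the 776 and in none for 1. All 4 lists without ligand (baseline and 1 h control) held a peak for 364 (46.9%). That share was 79.1% for BT474 regions and 53.1% for all regions. A peak was lacking in all 4 for 20 (2.58%), against 8.17% and 25.4%. Like most BT474 regions, the 776 thus mostly had early peaks in BT474R. They were mostly without a called peak after 12 or 24 h in vehicle and called after the same time in ligand, as the choice required. A further 5761 regions met the same BT474 and control limits but had a peak in 2 or fewer of the late ligand lists. They are called lost with or without ligand, by comparison with BT474. Of these, 55.4% had no peak in any of the 4 early BT474R lists without ligand and 7.88% had one in all 4. In each of the 8 lists 10.5% to 36.2% of them had a peak, against 49.4% to 98.1% of the 776. Early presence was not particular to the 776. Another 625 regions met the same late BT474R limits but had a peak in 2 or fewer BT474 lists. Of these, 40.2% to 94.6% had a peak in each of the 8 lists. Both of these sets were also chosen by late BT474R lists.

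In the lists that chose them, the counts were as follows and are a description only. Of the 776, 1 and 71 had a peak in the control replicates at 12 h, and 32 and 356 in those at 24 h. EGF-BT474R lists held 550 and 514 at 12 h and 769 and 772 at 24 h, and HRG-BT474R lists held 743 and 696 at 12 h and 753 and 678 at 24 h. The lowest ligand lists were therefore those of EGF at 12 h, and 135 regions had a peak in neither of them. A peak in both replicates was found for 423 regions with EGF at 12 h, 668 with HRG at 12 h, 766 with EGF at 24 h and 661 with HRG at 24 h. Over all merged regions, 2.85% met the limits on the late BT474R lists, and 1.01% also met that on BT474.

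**Figure D1:**
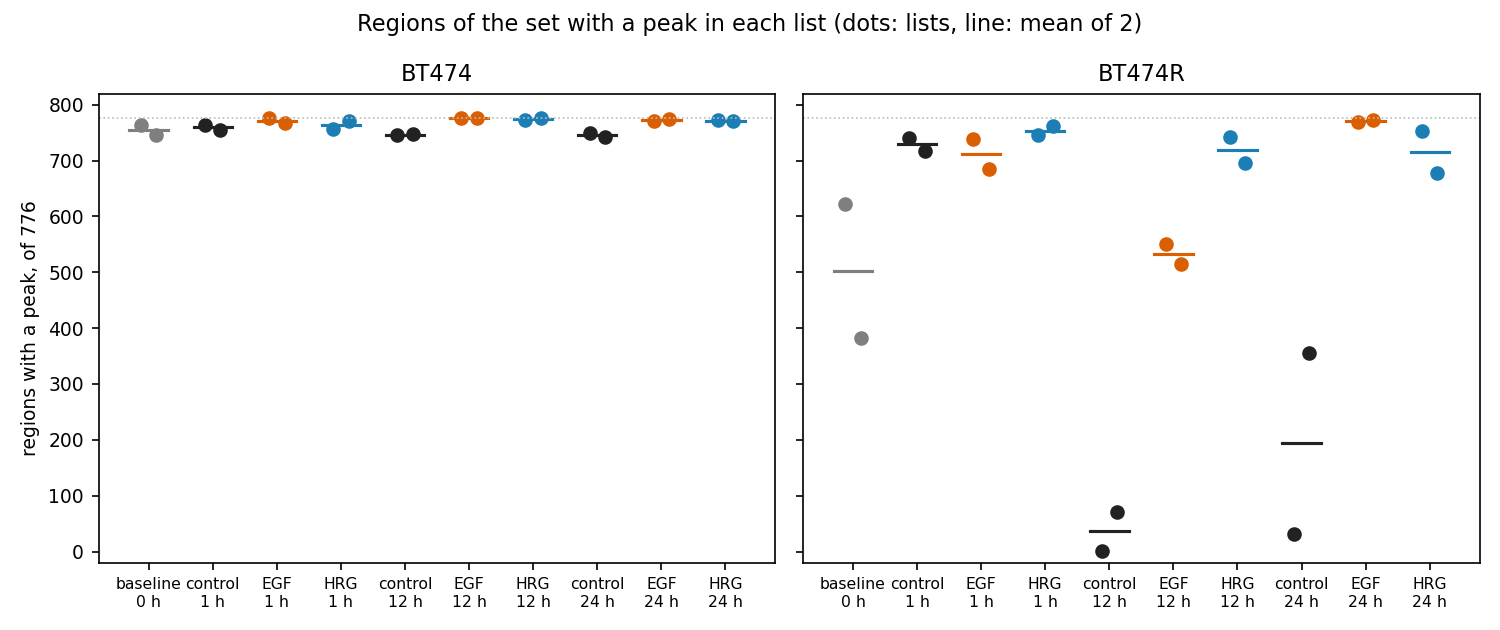
Number of the 776 regions with a peak (y axis) in each of the 40 peak lists, by treatment and time (x axis), in BT474 (left) and BT474R (right). Dots are lists and short lines the mean of 2; the dotted line marks 776. In BT474R the baseline lists had 623 and 383. The control lists had 741 and 717 at 1 h, 1 and 71 at 12 h and 32 and 356 at 24 h. No ligand list was below 514. The difference between late control and late ligand lists was fixed by the choice of the regions.

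The number of peaks in a list moved with these counts. The control list of BT474R at 12 h with 1 of the 776 had the fewest peaks of all, 32479, and the other had 40331. The control lists at 24 h had 41833 and 45799. The EGF lists at 12 h had 38205 and 37476. That they hold more of the 776 than the control lists was fixed by the choice. The baseline list with 383 had 44546 peaks, and the HRG list at 24 h with 678 had 44351. Of the regions lost with or without ligand, 0.0521% to 4.93% had a peak in the late control lists and 0.104% to 25.5% in the late ligand lists, the highest in HRG replicate 1 at 24 h, the late list with most peaks. The mirror-image pattern, a peak in 3 or more of the 4 late control lists and in 2 or fewer of the 8 late ligand lists, was met by 80 of the 40765 BT474 regions. To hold list size equal, the same number of peaks was also taken from every list. With the 32479 strongest peaks of each list, 237 regions met the rule and 201 the mirror image. This also dropped the weakest peaks of longer lists, and 42 of the 776 overlapped the 237. It therefore cannot decide the part of list size in the choice of the 776.

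**Figure D2:**
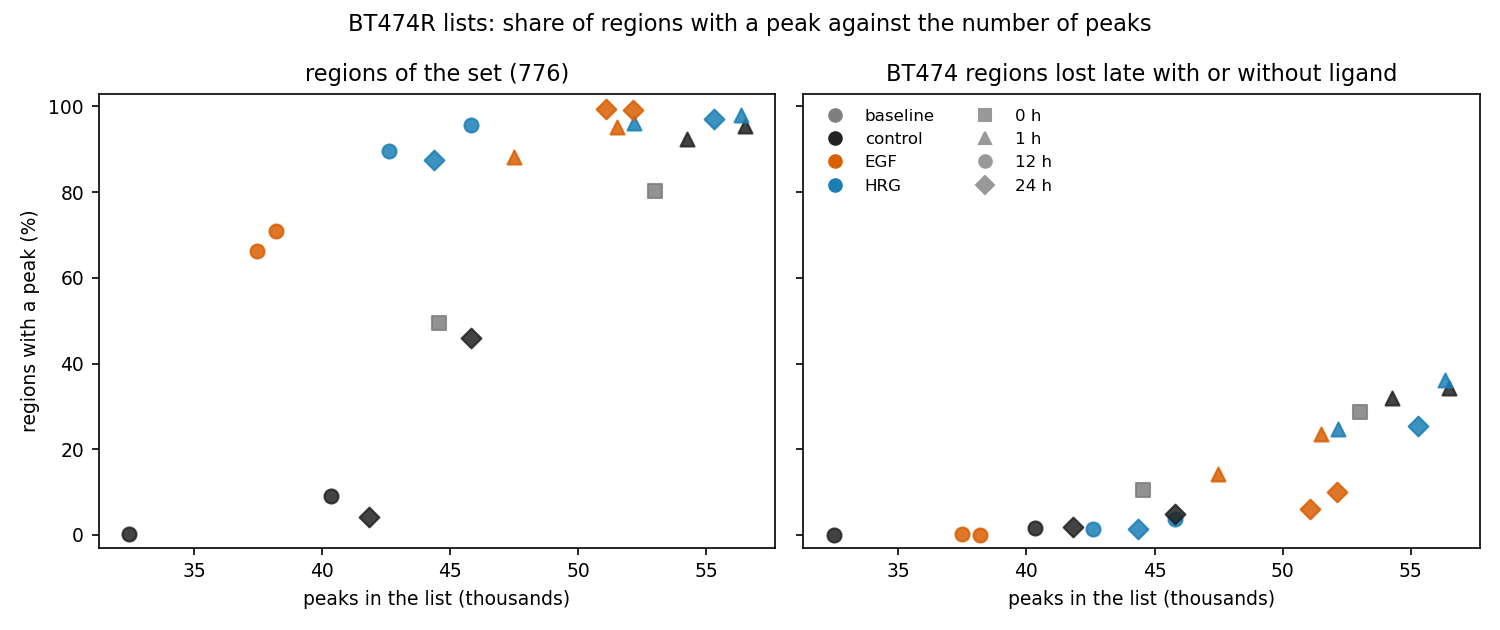
Share of regions with a peak (y axis, %) against the number of peaks in the list (x axis) for the 20 BT474R lists; colours are treatments and symbols are times. Left, the 776 regions: all 8 late ligand lists, with 37476 or more peaks, held 66.2% or more, and the 4 late control lists, with 45799 or fewer, held 45.9% or less. The choice of the regions used these late lists and fixed that difference. Right, the 5761 regions lost with or without ligand by comparison with BT474, where the share was below 40% in all lists.

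The 776 were weak peaks. Their median area (the score the peak caller gives, for which the deposited lists have a lower limit of 200) was 250 to 375 in the late ligand lists of BT474R, where their median percentile among all peaks was 13.2 to 32.2. In BT474 the median percentile was 29.4 to 49.4, against 67 to 72.1 for the 29690 regions that were kept in BT474R (a peak in 3 or more late control and 6 or more late ligand lists). A limit of presence near the weakest listed peaks decided which regions entered. When only peaks with an area of at least 400 were used, 520 regions met the rule and 14 of the 776 overlapped them (1.8%). With equal numbers of top peaks 42 of the 776 overlapped the 237 (5.41%). An AP-1 match, described below, was held by 37.3% of the 520 and 44.3% of the 237. At 0 h and in control at 1 h the 237 had a peak in 35% and 58.2% of list entries, and the 520 in 67.2% and 95.9%.

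Membership also depended on single control lists. In the choice used here, 316 regions had no peak in any late control list and 460 had 1, which was in replicate 2 of the 24 h control for 356 of them. With the limit of 1 applied to the 3 lists left, 1785 regions were taken without that list. Leaving out the other 24 h control list gave 1407, and leaving out replicate 2 at 12 h gave 1204. The AP-1 share was then 29.9%, 30.5% and 35.6%. Just inside the limits, 81 regions had a peak in 18 BT474 lists and 278 in 6 late ligand lists. Just outside, 59 regions had a peak in 17 BT474 lists, 1038 in 2 late control lists and 338 in 5 late ligand lists, with the other limits met. A peak in all 20 BT474 lists was found for 610 of the 776 and in all 8 late ligand lists for 321.

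As a readout that the choice had not used, the peak areas of the 776 were compared between ligand and control within BT474, the parental line, where these regions were open throughout. Of the 610 that could be tested, 264 rose with both ligands in the mean of 12 and 24 h, against 11.2% of all regions tested. The 8 BT474 lists without ligand placed the regions at a median percentile of 29.4 to 33.6 and the 12 ligand lists at 40.2 to 49.4, so the lists did not overlap. For the kept regions the ranges were 67 to 69.9 and 67.1 to 72.1 and overlapped.

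**Figure D3:**
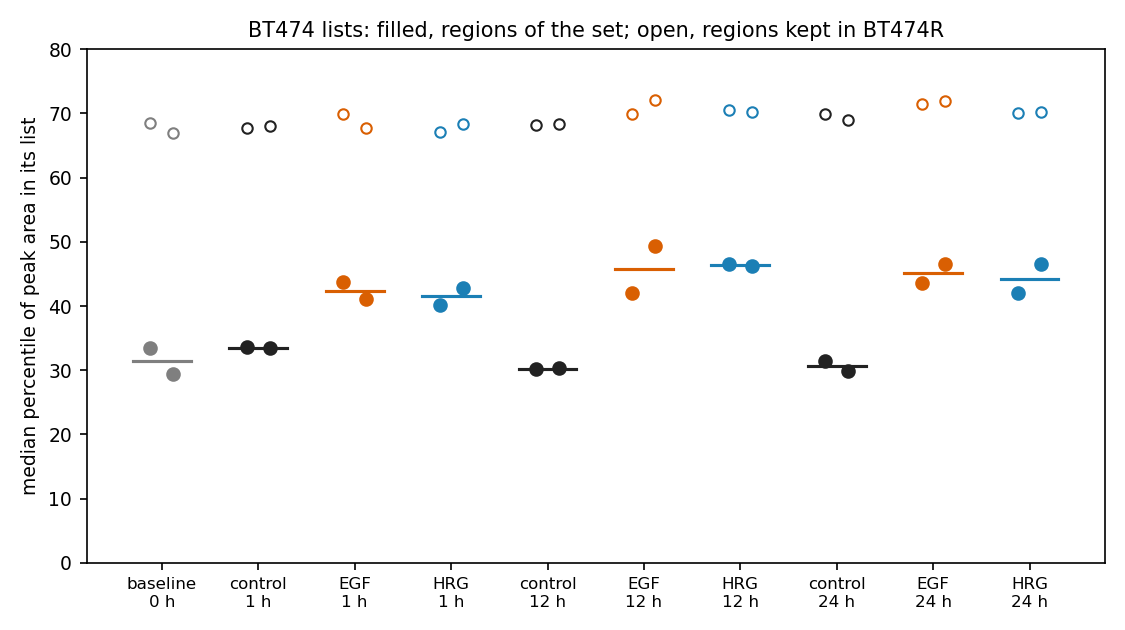
Median percentile of peak area within its list (y axis, 0 to 100 scale) for the 776 regions (filled) and for the regions kept in BT474R (open circles) in the 20 BT474 lists, by treatment and time (x axis); short lines are means of 2 lists. All 12 ligand lists lay above all 8 baseline and control lists for the 776.

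For the test, log2 areas were quantile normalized between the 20 lists and fitted with limma over the 36820 regions with a peak in each. Of the 776, 610 could be tested, and the remaining 166 lacked a peak in 1 or 2 BT474 lists. In the mean difference over 12 and 24 h, EGF raised 278 of the 610 and lowered 7 at an adjusted p under 0.05, which is 45.6% higher, against 13.5% higher and 8.39% lower over all regions tested. HRG raised 306 (50.2%) and lowered 10, against 13.3% higher and 9.39% lower over all. The median log2 difference was 0.30 with EGF and 0.34 with HRG, and -0.03 and -0.05 over all regions. Of the 610, 14 passed with EGF but not HRG, 42 with HRG but not EGF and 290 with neither. A rise at each of the 2 times was not tested. EGF and HRG share their control lists here, so the count called for both is no independent evidence. The labels do not say whether the duplicate libraries came from separate cultures, and the p-values measure the spread between these lists.

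The regions lost with or without ligand, which started at a similar level, did not show such a shift. Their median percentile was 29.5 to 34.4 in the BT474 lists without ligand and 28.4 to 38.4 in those with ligand. With EGF 7.69% of the 4068 tested were higher and 11.7% lower, with a median of -0.08, and with HRG 9.81% were higher and 18.3% lower, with a median of -0.11. Scaling changed the split over all regions but not over the 776. The share of calls that were higher, over all regions, was 61.6% with EGF and 58.6% with HRG, and 43.1% and 46.3% when lists were centred on their medians instead. Among calls in the 776 it was 97.5% and 96.8%, and 98.1% and 95.4% with that centring.

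**Figure D4:**
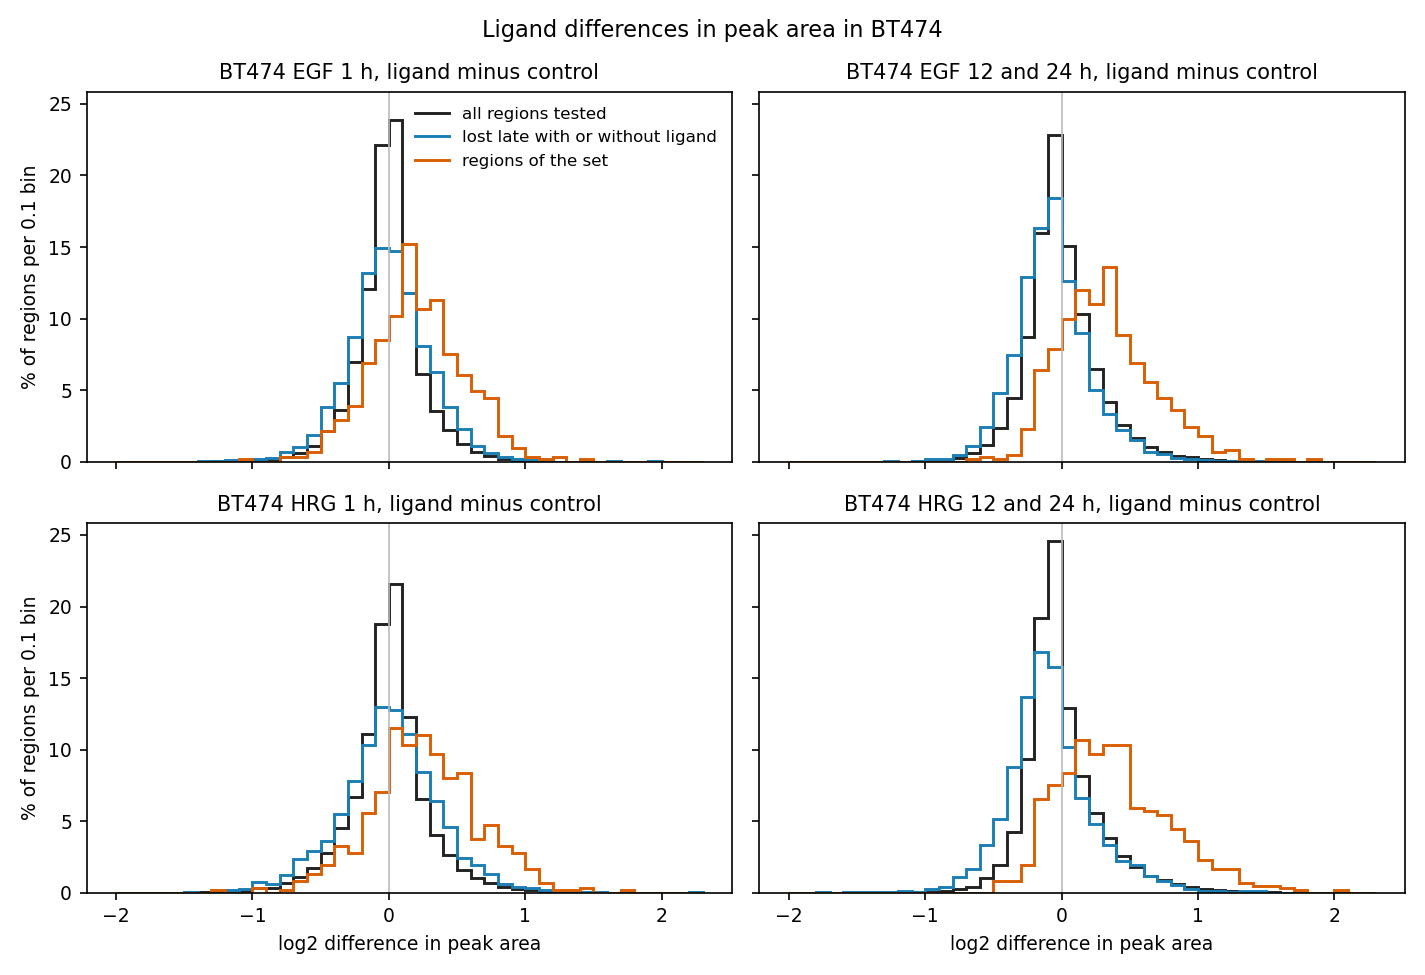
Log2 difference in peak area between ligand and control in BT474 (x axis) against the percent of regions in each bin of 0.1 (y axis), for EGF (top) and HRG (bottom) at 1 h (left) and at 12 and 24 h (right). Lines show the 776 (610 tested), the regions lost with or without ligand (4068 tested) and all 36820 regions tested; late medians of the 776 are 0.30 and 0.34.

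At 1 h in BT474 fewer of the 610 passed the test, again mostly higher. EGF raised 78 (12.8%) and lowered 7, against 2.15% higher and 1.7% lower over all regions, with a median of 0.19. HRG raised 158 (25.9%) and lowered 10, against 4.99% higher and 5.61% lower, with a median of 0.23. Each of these counts rests on 2 lists a group. The EGF count was 31 and 16 without control replicate 1 or 2 at 1 h, and 19 and 11 without EGF replicate 1 or 2. The HRG count was 92 and 79 without those control lists, and 76 and 82 without HRG replicate 1 or 2. The late effect was tested against that at 1 h in the same fit. It was larger for 43 of the 610 and smaller for 6 with EGF, against 3.85% and 1.21% over all regions, and larger for 66 and smaller for 20 with HRG, against 6.45% and 2.85%.

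Vehicle alone was compared between late and early times in BT474, a comparison added after the data had been seen. Relative to baseline and 1 h control, 53 of the 610 regions were lower at 12 and 24 h of vehicle and 2 were higher (limma), against 1.49% lower and 0.619% higher over all regions. The median difference was -0.10 and 162 of the 610 had a positive value. The count of lower regions was 19 to 31 when any of the 8 baseline and control lists was left out. It was not tested whether the lines differed in this.

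In BT474R at 1 h, where 325 of the 776 had a peak in all 8 lists of 0 and 1 h and could be tested, limma called none in either direction. Over the 38133 regions tested, EGF raised 0.0105% and lowered 0.00787%, and HRG changed 0% in either direction. The fit had 4 residual degrees of freedom. At an unadjusted threshold of 0.05, EGF-BT474R had 99 of the 325 higher and 4 lower, against 6.38% and 6.21% over all regions, and HRG-BT474R had 56 higher and 3 lower, against 2.67% and 2.16%. The median log2 difference was 0.20 with EGF and 0.13 with HRG, and 0.01 and -0.00 over all regions. When regions missing in up to 2 lists were kept at the lowest listed area, EGF raised 19 of 693, against 0.231% of all regions in that fit. By presence, 8 of the 776 had a peak in all 4 ligand lists at 1 h and in neither control list, against 0.299% of all regions. None had the reverse, which 0.901% of all regions had.

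The sequence and position of the 776 had not entered the choice either. An AP-1 match within 100 bp of the summit was present in 312 (40.2%, 95% Wilson interval 36.8% to 43.7%, counting error only). The share was 13.1% over all merged regions of the same window, 11% over BT474 regions, 10.3% over kept regions and 9.46% over regions lost with or without ligand. In the 80 mirror-image regions it was 1.25% (0.221% to 6.75%). Of the 94 regions with the full pattern, 53 held a match (56.4%). Of the 625 regions with the same late BT474R pattern but a peak in 2 or fewer BT474 lists, 188 did (30.1%). More than 1 match was found in 35 of the 776 (4.51%) and in 1.14% of all regions. Among the 312, the nearest match lay a median of 27 bp from the summit, and within 25 bp for 149 (47.8%). In the 3071 kept regions with a match the median was 32 bp and 41.6% lay within 25 bp.

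The other 17 motifs differed less, and all were searched on both strands. The GATA letters (AGATAA or TGATAA) were found in 21.6% of the 776, 19.5% of regions lost with or without ligand and 14% of all regions. For the TEAD letters (GGAATG) the shares were 21.4%, 17.4% and 13.8%, and for RUNX (TGTGGT with any next base) 15.7%, 12.9% and 13%. The FOX letters (TGTTTAC or TATTTAC) were found in 12.6%, 16% and 14.7%. SP/KLF letters (GGGCGG or GGGTGG), common in promoters, were in 20%, 27.3% and 31.6%. The CTCF pattern was in 3.09%, 5.52% and 4.84%. A cyclic AMP response element (TGACGTCA), which differs from the AP-1 site by an added base, was in 3 of the 776 (0.387%) and 0.641% of all regions. A match is a description of the letters and not of binding.

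**Figure D5:**
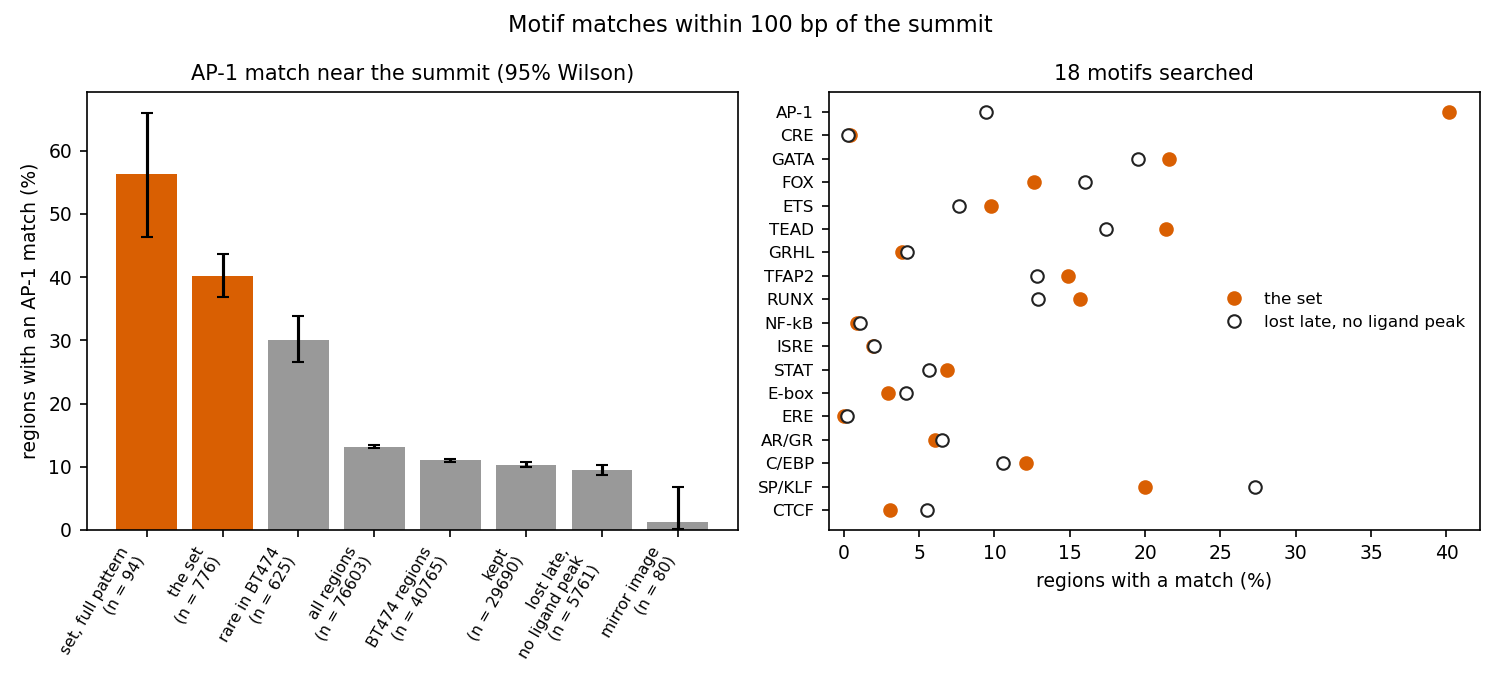
Left, share of regions with an AP-1 match within 100 bp of the summit (y axis, %) in the 776 (the set), its 94 full-pattern regions and 6 other sets, with 95% Wilson intervals. Right, share of regions with a match to each of 18 motifs (x axis, %) in the 776 (filled) and in the 5761 regions lost with or without ligand (open); AP-1 stands at 40.2% against 9.46%.

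The presence of an AP-1 match went with the size of the ligand response within the 776, given as a description. Of the tested regions with a match, 61.3% of 238 were higher with late EGF and 67.2% with late HRG, with medians of 0.39 and 0.46. Without a match, 35.5% of 372 and 39.2% were, with medians of 0.22 and 0.24. Of the 29 regions with more than 1 match, 26 were higher with EGF and 25 with HRG, with medians of 0.53 and 0.71. In BT474R, a peak in all 4 lists without ligand at 0 and 1 h was found for 105 of the 312 with a match (33.7%) and for 259 of the 464 without (55.8%). In the lists that the choice had used, all 8 late ligand lists held a peak for 58.7% of the former and 29.7% of the latter.

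Most of the 776 were distal. A transcript start of any annotated gene lay within 1 kb of 124 (16%), against 30.1% of all regions, 42.4% of BT474 regions and 23.8% of regions lost with or without ligand. They were intronic in 465 cases (59.9%), intergenic in 257 (33.1%) and exonic in 54 (6.96%). The median distance to the nearest transcript start was 8.65 kb, and 2.82 kb for BT474 regions. The median width was 527 bp against 785 bp, and the median GC content of the 201 bases at the summit was 48.5% against 55.2%. By chromosome, 1.05% (chromosome 22) to 2.67% (chromosome 8) of BT474 regions were among the 776, and 1.9% overall. Another of the 776 lay within 50 kb of 74 regions (9.54%), so most stood alone.

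The largest late rises in BT474 were near BZW1, GEM and ITGB5 with both ligands. The region near BZW1 (chr2:200765172-200765958), which encodes a regulator of translation initiation and whose sequence is given above, had an area of 202 to 626 in the 8 BT474 lists without ligand, with a median of 273. The 12 ligand lists had 548 to 1108, with a median of 845, and the ranges overlapped only through control replicate 2 at 1 h. At 12 and 24 h the controls had 232, 254, 228 and 202, the EGF lists 781, 983, 783 and 967, and the HRG lists 908, 980.1, 1108 and 1062. The late log2 difference was 1.88 with EGF (SE 0.16, limma adjusted p = 1.34e-05) and 2.10 with HRG (SE 0.16, adjusted p = 3.19e-06). In BT474R this region had 215 and no peak at baseline, 283 and 358 in control at 1 h, and no peak in any late control list. The ligand lists at 1 h had 588 and 469 with EGF and 554 and 489.8 with HRG. Those at 12 h had 467 and 408 with EGF and 437 and 334 with HRG, and those at 24 h had 949.7 and 969 with EGF and 514 and 497 with HRG.

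The region near GEM, a GTP-binding protein induced by mitogens, had 255 to 559.9 without ligand and 924 to 1288 with ligand in BT474, with no overlap. It rose by 1.67 with EGF (SE 0.11, adjusted p = 3.80e-06) and by 1.78 with HRG (SE 0.11, adjusted p = 1.12e-06), and was also higher at 1 h (0.75, adjusted p = 0.0235, and 0.85, adjusted p = 0.00547). Its area in BT474R was 1402 and 1404 with EGF at 24 h and 422 in replicate 2 of the 24 h control, its only late control peak. The region near ITGB5 (chr3:124878528-124879293), an integrin beta subunit, lay in an annotated exon. It had 343 to 753 without ligand and 876 to 1451 with ligand, and rose by 1.56 and 1.68 (SE 0.12 each, adjusted p = 1.03e-05 and 2.94e-06). In BT474R it had no peak at baseline, 223 and 220.4 in control at 1 h, 513 and 442 with EGF and 423 and 439.5 with HRG at 1 h, no late control peak, and 1102 and 1192 with EGF at 24 h. At 1 h in BT474R the ligand lists of these 3 regions also lay above both control lists, but each lacked a peak in 1 or both baseline lists and was not tested there.

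Regions that rose most at 1 h in BT474 were near GRID1, DBX1 and DDX60L with EGF and near DBX1, BARX2 and CYP24A1 with HRG. CYP24A1 encodes the enzyme that inactivates vitamin D, and the region 41 kb from its start (chr20:54132538-54135342) had 408 to 573 without ligand. HRG at 1 h gave 1465 and 1558 and EGF 967 and 891, a difference of 1.44 with HRG (SE 0.27, adjusted p = 0.00481) and of 0.71 with EGF (SE 0.27, adjusted p = 0.175). The region near BARX2, a homeobox factor, had 207 to 295 without ligand and 450 to 732 with ligand. It rose by 1.46 with HRG (adjusted p = 3.96e-04) and 1.15 with EGF (adjusted p = 0.00475) at 1 h. The region near DDX60L, whose relatives act in antiviral defence, had 423 to 761 and 967 to 1196. It rose by 1.24 with EGF at 1 h (adjusted p = 3.00e-04) and 0.93 late (adjusted p = 9.11e-06). With HRG it rose by 1.32 at 1 h (adjusted p = 4.35e-05) and 0.95 late (adjusted p = 3.70e-06). That near GRID1, the largest rise with EGF at 1 h, rose by 1.47 (SE 0.36, adjusted p = 0.0425), with a late difference of 0.72 (adjusted p = 0.062).

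The regions that fell in BT474 were few. That near FOSL2 (chr2:28268997-28269753), 123 kb from the start of this FOS family gene, had 1001 to 1123 without ligand and 652 to 953 with ligand, without overlap. The log2 difference was -0.50 with late HRG (adjusted p = 5.03e-04) and -0.34 with late EGF (adjusted p = 0.00733), and the region held 1 AP-1 match. The region near NEK3, a kinase linked to prolactin receptor signalling, had -0.47 with late HRG (adjusted p = 2.85e-05) and -0.23 with late EGF (adjusted p = 0.00496). The region near LTBP4, a protein that binds latent TGF-beta, had -0.60 with late EGF (adjusted p = 0.00176) and -0.32 with late HRG (adjusted p = 0.0448). That near APOA4, an apolipoprotein gene, had -0.51 with late EGF (adjusted p = 0.00338) and -0.39 with late HRG (adjusted p = 0.0144). The region near CHST12, a sulfotransferase of chondroitin chains, had -0.43 with EGF (adjusted p = 0.0491) and -0.47 with HRG (adjusted p = 0.0337). At 1 h the region near KALRN, a guanine nucleotide exchange factor, had log2 differences of -1.05 with EGF (adjusted p = 0.0104) and -1.23 with HRG (adjusted p = 0.00158), with late differences of 0.16 and 0.12 that did not pass. The region near DEGS1, a ceramide synthesis enzyme, had -0.45 with EGF and -0.94 with HRG at 1 h (adjusted p = 0.0194 and 1.71e-04) and was higher late, by 0.69 and 0.72 (adjusted p = 2.75e-05 and 1.10e-05). That near CAMKK1, at 0.204 kb from the gene start, had -0.59 and -0.96 at 1 h (adjusted p = 0.0129 and 3.96e-04) and was higher with late EGF (0.25, adjusted p = 0.032). The regions near RBMS3 and RASGRP3 had -0.75 (adjusted p = 0.0211) and -0.65 (adjusted p = 0.0335) with EGF at 1 h, and that near RBMS3 was higher with late HRG (0.50, adjusted p = 0.00574).

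Among the 10 full-pattern regions that ranked highest in the late ligand lists of BT474R, 7 passed the late test with EGF in BT474 and 9 with HRG, all higher, against the 45.6% and 50.2% of the 610 and the 13.5% and 13.3% of all regions given above. The highest was that near IMMP2L (chr7:111499028-111499694), with a median percentile of 58.8 in those lists. Its area was 727 to 946 without ligand and 801 to 1533 with ligand in BT474, and 463 to 1077 in the late ligand lists of BT474R, against 279 and no peak at baseline and 255 and 234 in control at 1 h. The region near COMMD9 had 623 to 891 and 1034 to 1573 in BT474, with no overlap, and rose at all times tested (late 0.63 and 0.77, adjusted p = 5.68e-06 and 9.13e-07, and 0.66 and 0.87 at 1 h, adjusted p = 7.79e-04 and 3.74e-05). The region near ZMIZ1 rose late by 1.28 and 1.43 (SE 0.11 each, adjusted p = 1.54e-05 and 3.47e-06) with differences of 0.12 and -0.15 at 1 h that did not pass. The region near TSN, at 1012 kb from the start of that gene, had 502 to 885 and 879.8 to 1290 and rose by 0.81 and 0.97 (adjusted p = 2.91e-04 and 5.23e-05). In BT474R it had a peak in all 8 lists of 0 and 1 h, from 299.6 at baseline to 726 with EGF. The region near PTPRJ, a receptor phosphatase, rose by 0.64 and 0.63 (adjusted p = 6.65e-05 and 4.77e-05). That near ADGRF5 did not pass in any of the 4 tests (late 0.41 and 0.39, adjusted p = 0.0545 and 0.0657).

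A nearest protein-coding gene start within 100 kb was found for 531 of the 776, at 504 genes. Of these genes 479 had 1 region, 23 had 2 and 2 had 3. The genes with 3 were DFFA, the inhibitor of an apoptotic nuclease, and AHNAK, a large scaffold protein. They were followed, with 2 each and in order of position, by EPHA2, an ephrin receptor kinase, MREG and SUMF1. AHNAK had 3 of its 10 BT474 regions among the 776, 2 of them with an AP-1 match, and EPHA2 2 of 9, both with a match.

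Few of the genes of signalling lists had a region among the 776. None of the 27 BT474 regions near ERBB receptor and ligand genes was included, nor any of 66 near AP-1 and related bZIP subunit genes (FOSL2 itself is beyond 100 kb) or of 44 near RAS and MAP kinase genes. Over all genes, 1.61% of BT474 regions assigned to a gene were among the 776. Feedback inhibitors of ERK signalling had 2 of 78 (2.56%), near SPRY4 and SPRED1. Immediate early genes had 1 of 77, near EGR1, adhesion and migration genes 1 of 72, near ITGB6, luminal lineage genes 1 of 97, near KRT18, interferon genes 1 of 32, near GBP2, and PI3K, AKT and mTORC1 genes 1 of 42, near EIF4EBP1. Glycolysis and hypoxia genes had 3 of 63 (4.76%), near CD99, HK2 and SLC2A1. These are counts of 3 or fewer and show nothing particular to a list.

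Of those 10 regions, 7 could be tested. The region near SPRED1, a membrane inhibitor of RAF activation, had 301 to 436 without ligand and 437 to 1130 with ligand in BT474, with no overlap, and rose late by 0.83 with EGF (SE 0.23, adjusted p = 0.0232) and 0.99 with HRG (SE 0.23, adjusted p = 0.00865). In BT474R it had 249 and no peak at baseline, 275 and 249.9 in control at 1 h, no late control peak and 244 to 386 in the 8 late ligand lists. The region near EIF4EBP1, the translation repressor that mTORC1 phosphorylates, rose by 0.52 and 0.65 (adjusted p = 0.00129 and 1.86e-04), and that near ITGB6 by 0.39 and 0.37 (adjusted p = 0.0368 and 0.0435). The region near CD99 rose with HRG (0.97, adjusted p = 0.00291), with a difference of 0.22 with EGF (adjusted p = 0.421). The region near EGR1, an immediate early zinc finger factor, had 530 to 666 without ligand and 506 to 812 with ligand, and late differences of 0.00 and -0.11 (adjusted p = 0.974 and 0.348). That near GBP2, an interferon-induced GTPase, had -0.09 and -0.11 (adjusted p = 0.696 and 0.609).

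The region near KRT18, a keratin of luminal cells, had the highest areas of these 10 in BT474. It spanned chr12:52945068-52947799, and in BT474 it had 1746 to 3096 without ligand and 2043 to 4431 with ligand, which overlap (late 0.66 and 0.63, adjusted p = 0.0564 and 0.0683). In BT474R it had no peak at baseline, 299 and 301 in control at 1 h and 373 to 489 with ligand at 1 h. At late times it had no control peak and 215 to 361 in 7 of the 8 ligand lists. The regions near SPRY4, HK2 and SLC2A1 lacked a peak in 1 or 2 BT474 lists and were not tested. HK2 and SLC2A1 encode hexokinase and the glucose transporter GLUT1. The region near SPRY4 had a peak in 6 of the 8 BT474 lists without ligand, at 200.3 to 270.1, and in all 12 with ligand, at 215 to 364, and in BT474R it reached 834 in the late ligand lists.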

How the data were processed

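ATAC-seq peak lists of 40 libraries were analysed. As its methods state, the authors trimmed reads with TrimGalore, mapped them to GRCh38 with BBMap and called peaks in each library with Genrich, which also removed mitochondrial and blacklisted reads. Which options Genrich ran with is not given in the sources used here. The value used from each deposited peak is the caller's score, an area under its significance curve with a lowest value of 200 in all lists, which depends on depth. Strength was therefore compared as a percentile within a list, or as log2 area after quantile normalization.

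The study's differential test on reads was not repeated. Areas were compared with limma 3.58.1 (R 4.3.3): group means over all 20 BT474 lists, or the 8 BT474R lists of 0 and 1 h, in regions with a peak in every list of the fit, two-sided, with Benjamini-Hochberg adjustment over all regions tested and a threshold of 0.05. All adjusted p-values in the text are from limma. The late contrast averages the ligand minus control differences at 12 and 24 h. The fits were tested on simulated data. A region takes the area of its highest peak, and its summit is the median of the lists' summits. Motifs were searched on hg38 within 100 bp of the summit. Promoter distances run to the transcript starts of GENCODE release 44, and genes were assigned within 100 kb.

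Regions, gene lists, motifs and tests were chosen with earlier results of these data known. Regions named are the 10 strongest with the full pattern, those near listed genes, the 5 genes with most regions, and the 3 largest called changes per direction and contrast. Vehicle and late minus 1 h contrasts, and the reading of other choices of regions in the BT474 fits, were added after the data were seen. Alternatives were an area of at least 400, equal numbers of top peaks (32479), peaks trimmed to 400 bp, wider windows, median centring, missing peaks at the lowest area, a replicate block, and each list left out. Tables and figures were made in Python 3.11.15 (scipy 1.17.1, pandas 2.3.3, numpy 2.4.6, matplotlib 3.10.9).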

Additional observations from a re-analysis of the deposited data

Results flagged for a closer look

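In BT474 the late effect of a ligand was tested against its 1 h effect in limma, and most of the 610 tested regions did not pass. With EGF, 43 regions had a larger late effect and 6 a smaller one. With HRG, 66 had a larger late effect and 20 a smaller one. The shares over all 36820 regions tested were 3.85% and 1.21% with EGF and 6.45% and 2.85% with HRG. Leaving out single lists gave 18 to 58 larger with EGF, lowest without control replicate 2 at 1 h, and 36 to 88 with HRG, lowest without HRG replicate 1 at 1 h. The cause was not tested.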

How the results depend on the processing

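The number of regions was 520 to 792 under a minimum area of 400 or peaks trimmed to 400 bp, and 237 with equal numbers of top peaks, where 61.6% of the entries of the 8 BT474R lists at 0 and 1 h held a peak, 44.3% of regions an AP-1 match and 13.5% a promoter. A motif window of 250 bp gave an AP-1 share of 47.3%, and promoters of 3 kb a share of 28.2%. Leaving out each list gave 776 to 1785 regions, highest without replicate 2 of the 24 h BT474R control, with 85.3% to 92.2% of entries at 0 and 1 h open, AP-1 shares of 29.9% to 40.7% and promoter shares of 15.7% to 23.2%. Read in the same fits, regions chosen with other peak lists were higher late in BT474 for 44.9% to 58.1% of those tested with EGF and 49.2% to 61.9% with HRG.

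The late counts in BT474 stayed within 1.5 times under all alternatives, at 204 to 310 (EGF) and 257 to 327 (HRG) with a list left out. At 1 h the counts were 11 to 100 (EGF) and 76 to 179 (HRG), lowest without EGF replicate 2 and HRG replicate 1 at 1 h. In BT474R at 1 h, EGF counts were 19 of 693 with missing peaks at the lowest area, and 0 to 18 with a list left out, of which 15 of 337 and 18 of 525 came without baseline replicate 1 or 2, against 0.444% and 0.384% of all regions in those fits. The cause was not tested. HRG counts there were 0 throughout.

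With the replicate block the counts were 283 and 311 late and 81 and 162 at 1 h in BT474, and 0 and 0 in BT474R. The correlation of the deviations of same-numbered lists had a median of 0.012 over 45 pairs of BT474 groups (-0.202 to 0.6, 4 above 0.1) and of -0.036 over 6 of BT474R (-0.307 to 0.086). As 4 of the 45 and 0 of the 6 pairs were above 0.1, the numbers were taken not to pair the samples. Whether the lists of some groups, such as the pair at 0.6, shared a source of spread was not tested.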
